A study of Mus musculus with 2 samples.

Results

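Cluster B2 of the postnatal mouse liver held 1468 B lineage cells among 15835 annotated single cells, 850 in the c-Maf KO library and 618 in the control library. Its members were all cells that the authors' deposited annotation names B2, found in the count tables by their barcodes. The study sorted endothelial and hematopoietic cells from livers at postnatal day 15 and sequenced them on a 10x Chromium instrument. The c-Maf KO library came from mice labelled as lacking c-Maf, a bZIP transcription factor, in endothelial cells, and the control library from control mice. Each library pooled 1 male and 1 female, so there was 1 library per group. No test between groups was possible, and intervals below cover counting error only. The labels used here do not name the Cre driver, the strain or the sorting gate. They name endothelial cells as the deleted type, and whether B cells kept the gene was not tested.

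B cells arise from committed progenitors through stages ordered by the assembly of their antigen receptor. Pro-B and pre-B cells express the recombinase genes Rag1 and Rag2 and build first a heavy chain, then a kappa or lambda light chain. A cell with a complete surface IgM receptor is an immature B cell. It acquires IgD, CD23, homing receptors and more MHC class II as it becomes a mature follicular B cell. The perinatal liver is a site of B cell formation before bone marrow takes over.

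The B2 cells gave 2752876 unique molecular identifiers (UMIs, one per captured RNA molecule) in the c-Maf KO library and 2160568 in the control library. The median cell held 2871.5 UMIs in c-Maf KO and 3167 in control. No barcode of a B2 cell occurred in both libraries, and the complete tables shared 25 barcodes. Among the B2 cells, 23 of the c-Maf KO cells and 8 of the control cells scored in the top 5% of their library for doublet likelihood. Levels below are counts of UMIs scaled to a fixed library total (CPM). In endothelial clusters Maf measured 162 CPM in c-Maf KO and 2070 CPM in control, the direction of the labels. In B2 cells Maf held 40 UMIs in c-Maf KO and 57 in control, or 14.5 and 26.4 CPM. It met the rule for a lower call given with the genotype comparison, at a log2 ratio of -0.86. Maf lost this call when cells were thinned to an equal depth, at -0.44, and kept it in all 4 unthinned settings given at the end.

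The 5 marker genes of the cluster were each at their highest in B2 among the B lineage clusters CLP, B1, B2 and B3, in both libraries. Ms4a1, which encodes the B cell surface protein CD20, measured 47.4, 235, 2583 and 1255 CPM along CLP, B1, B2 and B3 in c-Maf KO. In control the same clusters measured 77.3, 151, 2349 and 1227. For Ms4a1, single cells showed the same step between B1 and B2. After thinning every cell to 2075 UMIs, 96.8% of c-Maf KO B2 cells and 96.2% of control B2 cells had a Ms4a1 UMI, against 18.0% and 14.0% of B1 cells. T cell clusters, which should lack the gene, gave 2.62% in c-Maf KO and 2.68% in control at median depths of 5519 and 5789 UMIs. Without thinning, the B2 shares were 97.8% and 97.4%. Cd79a, the signalling chain of the B cell receptor, measured 4640 in c-Maf KO B2 and 4431 in control B2, and its partner Cd79b 3477 and 3582. Ly6d, a surface marker of B lineage commitment, measured 4109 in c-Maf KO B2 and 4178 in control B2, against 1967 and 1976 in B3. Thinned shares of cells with a UMI differed among other markers. Ly6d rose from 86.4% of B1 to 98.4% of B2 cells in c-Maf KO and from 88.9% to 98.3% in control. Iglc1, a lambda light chain gene, rose from 26.3% to 83.7% and from 31.9% to 89.2%. Igkc, the kappa light chain gene, was already frequent in B1 and did not rise. Its share was 95.53% of B1 and 92.92% of B2 cells in c-Maf KO, and 94.98% and 91.78% in control. The clusters were made from these same genes, so the levels are a description and not a test.

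B2 combined a high IgM heavy chain with an intermediate IgD one. Ighm, the IgM heavy chain, measured 7223 CPM in c-Maf KO B2 and 6451 in control B2 and was lower in both B1 and B3. In c-Maf KO, Ighd, the IgD heavy chain that is spliced from the same primary transcript, measured 69.6 in B1, 238 in B2 and 563 in B3. In control it measured 74.0, 327 and 570. After thinning, 34.0% of c-Maf KO and 39.3% of control B2 cells had an Ighd UMI, against 1.25% and 2.77% of T cells. The other heavy chain constant genes were at or near 0. Ighg1, Ighg2b, Ighg2c and Ighe had no UMI in B2, Ighg3 measured 1.45 in c-Maf KO and 0 in control, and Igha measured 0.726 and 0.926.

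RNA of the recombination machinery was scarce in B2. Rag1, the catalytic subunit of the recombinase, held 32 UMIs in 850 c-Maf KO B2 cells and 13 in 618 control B2 cells. In c-Maf KO its level along CLP, B1, B2 and B3 was 370, 295, 11.6 and 2.34 CPM, and in control 276, 274, 6.02 and 0.90. After thinning, 2.14% of c-Maf KO and 0.874% of control B2 cells had a Rag1 UMI, beside a T cell background of 0.623% and 0.357%. Rag2 held 2 UMIs in c-Maf KO B2 and 1 in control B2. Dntt, which adds untemplated bases at heavy chain joints, held 5 and 1. Xrcc6, the Ku70 subunit of the end-joining complex, followed the same order at 422, 40.7 and 23.8 CPM in B1, B2 and B3 of c-Maf KO and 446, 30.1 and 18.4 of control. The surrogate light chain genes Vpreb1 and Igll1, which pair with the heavy chain before a light chain exists, had their high levels in CLP and held 28 and 15 UMIs in c-Maf KO B2 and 3 and 0 in control B2. Vpreb3, a related gene, declined in smaller steps. It measured 4198, 1729 and 304 in B1, B2 and B3 of c-Maf KO and 4304, 1279 and 260 of control. Of the 13 genes of the pre-B receptor and recombination list, 8 held 50 UMIs over B1 to B3 in each library, of which 6 declined from B1 through B2 to B3 in both and 2, Cd79a and Cd79b, were highest in B2. These and the following orders of list members are among B1, B2 and B3 only.

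**Figure D1:**
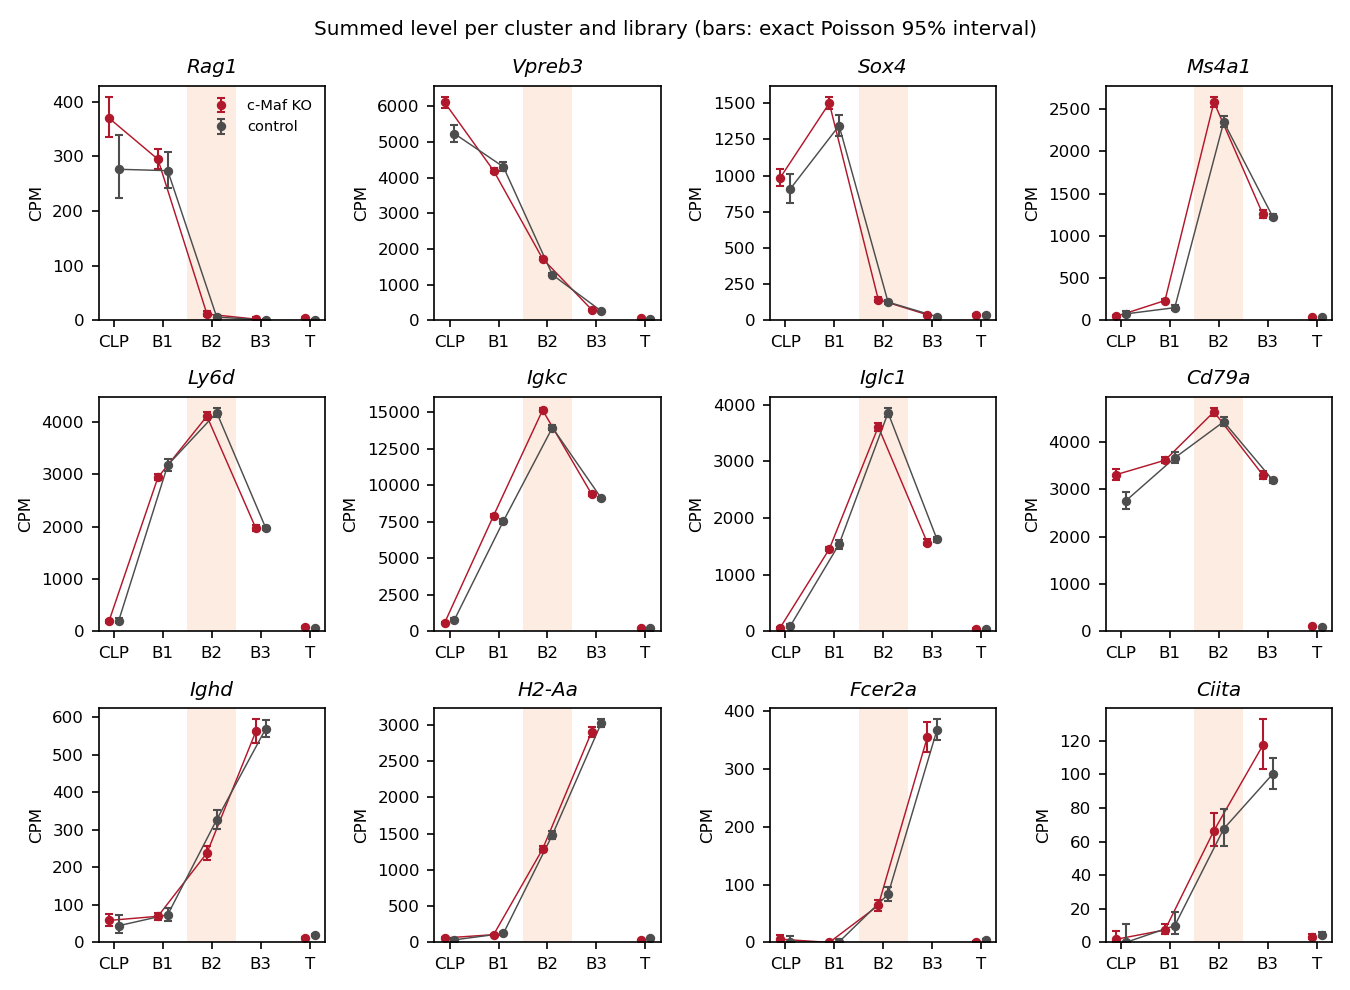
Summed level of 12 genes in CPM (vertical axes, linear from 0) in the clusters CLP, B1, B2 (shaded) and B3 and in the pooled T cell clusters, with c-Maf KO in red left of control in grey and bars for exact Poisson 95% intervals. Rag1 and Sox4 are far lower in B2 than in B1, Ms4a1, Ly6d, Igkc, Iglc1 and Cd79a are highest in B2, and Ighd, H2-Aa, Fcer2a and Ciita are highest in B3.

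Of the 20 progenitor genes, 12 held enough UMIs for an order, and 7 of them declined from B1 through B2 to B3 in both libraries. Lef1, Spn and Tcf4 were lowest in B2, and Ybx3 and Ssbp2 differed in order between the libraries. Sox4, a transcription factor of early B cells, measured 1499, 144 and 39.3 in B1, B2 and B3 of c-Maf KO and 1344, 126 and 25.6 of control. Il7r, the receptor chain for the growth factor IL-7, measured 417, 26.2 and 7.48 in c-Maf KO and 374, 3.70 and 1.80 in control. Cd93, the antigen AA4.1 used to recognise immature B cells, measured 208, 52.3 and 18.7 in c-Maf KO and 190, 34.2 and 15.8 in control, so B2 kept part of it. Cd24a, which encodes heat stable antigen, stayed high in B2 at 813 in c-Maf KO and 846 in control, against 236 and 239 in B3. Of the 20 genes listed for immature and transitional B cells, 10 declined from B1 through B2 to B3, 7 were highest in B2, 2 were highest in B3 and 1, Cd38, was lowest in B2, with the same order in both libraries.

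Genes of mature follicular B cells were already on in B2 but below B3. Of 24 listed genes, 18 were higher in B2 than in B1 and higher still in B3, in both libraries. Fcer2a, which encodes CD23, held 176 UMIs in c-Maf KO B2 and 180 in control B2, and 0 and 1 UMI in B1. Its level was 63.9 CPM in c-Maf KO B2 and 83.3 in control B2, against 355 and 368 in B3. Only a minority of B2 cells carried it, 8.28% in c-Maf KO and 9.44% in control after thinning, against a T cell background of 0.249% and 0.447%. 5 of the 24 genes were instead highest in B2. They were Klf2, S1pr1, Fcrl1, Cd40 and Tnfrsf13c. Klf2, a factor that keeps lymphocytes quiescent, measured 1543 in c-Maf KO B2 and 1961 in control B2. Its target S1pr1, the receptor by which lymphocytes leave tissues for blood, measured 210 and 236, against 182 and 184 in B3. Tnfrsf13c, the receptor for the survival factor BAFF, measured 536 in c-Maf KO B2 and 442 in control B2, against 204 and 163 in B3.

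All 11 genes of MHC class II presentation were higher in B2 than in B1 and higher still in B3, in both libraries. H2-Aa, the alpha chain of the class II molecule I-A, measured 107, 1287 and 2902 in B1, B2 and B3 of c-Maf KO and 124, 1484 and 3029 of control. Ciita, the master regulator of these genes, measured 7.40, 66.5 and 117 in c-Maf KO and 9.99, 67.6 and 100 in control. Cd74, the invariant chain, differed from the rest in that B2 had nearly reached B3. It measured 11181 in c-Maf KO B2 and 12174 in control B2, against 11856 and 12432 in B3.

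Genes for DNA replication and ribosome production were higher in B2 than in B1 and B3 for 17 of 20 measured S phase genes and 12 of 15 measured ribosome biogenesis genes. The share of all genes with this order was not counted. In CLP the S phase list summed to 763 CPM in c-Maf KO and 713 in control, against 855 and 900 in B2. The ribosome list summed to 2019 and 2594 in CLP, against 2829 and 3241 in B2. Mcm6, a subunit of the replicative helicase, measured 15.1, 41.4 and 25.2 in B1, B2 and B3 of c-Maf KO and 9.99, 51.4 and 32.2 of control. Fbl, the nucleolar methyltransferase fibrillarin, measured 96.5, 167 and 151 in c-Maf KO and 86.9, 212 and 168 in control. Few B2 cells had an RNA of the division genes Mki67 or Top2a. The thinned share was 4.14% in c-Maf KO and 2.27% in control, below the 15.7% and 11.6% of T cell clusters. It was close to the 2.74% and 2.15% of B1 and the 3.91% and 2.66% of B3. Without thinning it was 6.71% and 3.56% of B2 cells. By the authors' deposited phase calls, 85 of 850 c-Maf KO and 69 of 618 control B2 cells were S phase cells, and 0 and 2 were G2/M cells.

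Over all genes with 50 UMIs in both sums of each library, 295 of 6140 were at least 2-fold higher in B2 than in B1 in both libraries and 245 were at least 2-fold lower. Against B3 the counts were 104 higher and 91 lower of 7157. The genes furthest above B1 included Bank1, an adaptor of receptor signalling at 505 in c-Maf KO B2 and 466 in control B2 against 33.9 and 27.0 in B1. They also included Cxcr5, the chemokine receptor for lymphoid follicles, at 50.1 and 47.2 against 2.47 and 2.0, and H2-DMb2, which helps load peptides onto class II, at 253 and 283 against 11.1 and 14.0. Fgd2, March1, which encodes a ubiquitin ligase that removes class II from the surface, Cd200, Bcl2a1b, Rhof and Shisa8 completed the 10 with Fcer2a. The 10 furthest below B1 were Ren1, Rgs16, Rag1, Prg3, Lima1, Gfra1, Rbm24, Il7r, Rsph9 and Nav2. Ren1, the gene of renin, measured 1.09 in c-Maf KO B2 and 0.926 in control B2 against 43.76 and 49.97 in B1.

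The 10 genes furthest above B3 included Myl4, a myosin light chain, at 98.4 in c-Maf KO B2 and 39.3 in control B2 against 12.2 and 7.20 in B3, and Akap12, a kinase anchor, at 160 and 130 against 36.9 and 27.7. Wfdc21, Eaf2, Pclaf, Gh, Vpreb3 and Ift22 were also among them. The 10 furthest below B3 were S100a4, S100a6, Zbtb32, Lmna, Clec2i, Stat4, Gimap4, Anxa2, Rflnb and Sfn. S100a6, a calcium-binding protein, measured 33.8 in c-Maf KO B2 and 71.3 in control B2 against 1201 and 1453 in B3. Gimap4, a GTPase of maturing lymphocytes, measured 24.0 and 29.2 against 233 and 255.

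Single B2 cells spread between B1 and B3 and stood nearer to B3. Each cell was placed by the share of B3-high genes among its UMIs of 528 B1-high and 368 B3-high genes, each at least 2-fold different between B1 and B3 in both libraries and without immunoglobulin genes. The median B2 cell stood at 54.4% in c-Maf KO and 56.2% in control. B1 medians were 10.3% and 9.81%, and B3 medians 69.4% and 70.0%. The lower tail of B2 reached further towards B1 in c-Maf KO, with a 10th percentile of 35.2% against 40.5% in control, while the 90th percentiles were 64.8% and 65.0%. The same held in female-type cells, at 34.7% against 39.8%, and in male-type cells, at 35.0% against 39.6%, where type was read from RNA of Xist or of Y-linked genes. This difference was not tested.

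**Figure D2:**
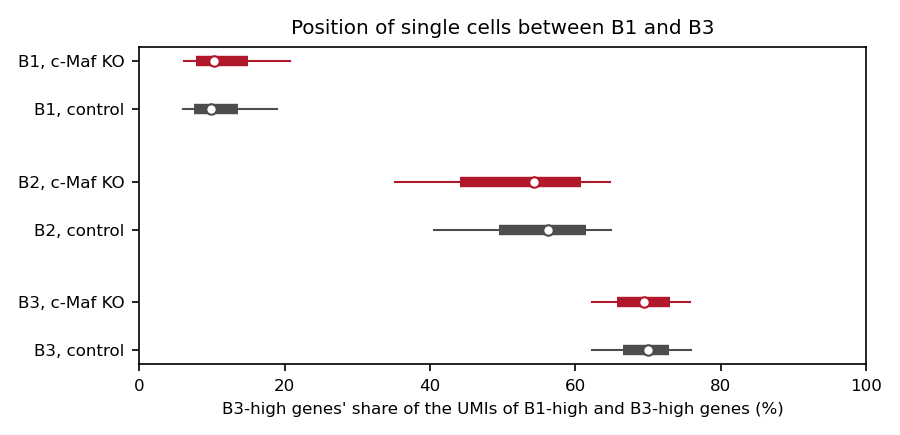
Share of B3-high genes among the UMIs of B1-high and B3-high genes per cell (horizontal axis, percent) in B1, B2 and B3, c-Maf KO in red above control in grey, with a circle at the median, a thick bar from the 25th to the 75th percentile and a thin line from the 10th to the 90th. B2 medians of 54.4% in c-Maf KO and 56.2% in control lie between B1 and B3, and the thin line of c-Maf KO B2 starts lower.

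Within B2, cells rich in B3-high genes also tended to be rich in MHC class II RNA. Spearman's rho between the per-cell shares was 0.34 in c-Maf KO and 0.21 in control, over 850 and 618 cells, after class II genes were taken out of the B3-high set. Immediate early genes, which answer receptor and stress signals, had a rho of 0.31 with the B3-high set in c-Maf KO and 0.27 in control. For S phase genes rho was near 0, at -0.03 and -0.06. These shares all use the same cell total, and cells of a library are not independent, so the values describe the cluster only.

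The light chain genes set apart a group of lambda cells in B2, while the other cells ran without a gap from little to moderate lambda RNA. A mouse B cell normally expresses 1 light chain isotype, kappa from Igkc or lambda from Iglc1, Iglc2 or Iglc3. The last 90 coding bases of the lambda constant genes, stop codon included, show how far this stretch of their RNAs can be told apart. Bases after the stop codon were not compared. They are given 5′ to 3′ from the GENCODE M21 transcripts of build GRCm38, in lower case, with capitals where a base differs from Iglc2. All lie on the minus strand, at chr16:19061752-19061841 for Iglc1, chr16:19198536-19198625 for Iglc2 and chr16:19065365-19065454 for Iglc3.
Iglc1: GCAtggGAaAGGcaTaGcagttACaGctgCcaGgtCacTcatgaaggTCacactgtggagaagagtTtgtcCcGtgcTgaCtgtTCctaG
Iglc2: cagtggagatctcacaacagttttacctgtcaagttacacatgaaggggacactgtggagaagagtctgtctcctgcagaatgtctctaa
Iglc3: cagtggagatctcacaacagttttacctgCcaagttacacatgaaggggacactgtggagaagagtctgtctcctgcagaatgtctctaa
Iglc3 differed from Iglc2 at 1 of the 90 bases, and Iglc1 differed from it at 27. The labels do not state how reads common to Iglc2 and Iglc3 were assigned, or whether they were counted at all. The division between these 2 genes is therefore uncertain. The sum of the 3 lambda genes does not depend on that division, but it would be too low if common reads were left out. Whether they were left out was not tested, and the lambda, kappa and mixed shares below rest on this sum.

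Summed over cells, Igkc measured 15156 CPM in c-Maf KO B2 and 13960 in control B2, against 7935 and 7557 in B1 and 9407 and 9112 in B3. Iglc1 measured 3609 in c-Maf KO B2 and 3855 in control B2, against 1452 and 1538 in B1. Iglc2 measured 1783 and 2230, and Iglc3 1142 and 1288. The light chain genes together gave a median of 60.5 UMIs per c-Maf KO B2 cell and 71 per control B2 cell, and a median of 0 per T cell in both libraries.

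Of 849 c-Maf KO B2 cells with at least 5 light chain UMIs, 377 were kappa, with 80% or more of those UMIs from Igkc. A further 103 were lambda by the same majority, which is 12.1% with an exact binomial 95% interval of 10.0 to 14.5%. The remaining 369, or 43.5%, fell between these limits and are called mixed. Of 613 control B2 cells, 230 were kappa, 80 were lambda and 303 were mixed, with 13.1% lambda (10.5 to 16.0%) and 49.4% mixed. The lambda intervals of the libraries overlapped. The limit between kappa and mixed cut through a continuous peak, and the sizes of these classes rest on it. At a majority of 95%, 9.89% of c-Maf KO and 5.71% of control B2 cells were kappa and 80.7% and 84.5% were mixed, while lambda was 9.42% and 9.79%. At the 80% limit, mixed cells were fewer in B1, at 19.7% in c-Maf KO and 21.5% in control, and more in B3, at 65.5% and 70.6%. Lambda cells were not particular to B2. They were 12.5% in c-Maf KO and 12.8% in control of typed B1 cells, and 6.28% and 8.06% of B3. Kappa cells were 67.8% and 65.7% of B1, and 28.2% and 21.3% of B3.

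The lambda share of single B2 cells had a broad peak at low values and a separate one at the top. The 5% bins on either side of the 20% limit held 99 and 98 cells in c-Maf KO and 76 and 82 in control. In c-Maf KO, 302 cells had between 10 and 25% lambda, 80 had 95% or more, and each 5% bin between 65 and 95% held 4 to 11 cells. In control, 231 cells had between 10 and 25%, 60 had 95% or more, and each bin between 65 and 95% held 3 to 10 cells. By the definition of the classes, lambda cells carried little kappa RNA and kappa cells little lambda RNA. Lambda cells had a median of 0 Igkc UMIs in both libraries and 31 Iglc1 UMIs in c-Maf KO and 40.5 in control. Kappa cells carried a median of 3 Iglc1 UMIs in both. Mixed cells had medians of 36 Igkc and 8 Iglc1 UMIs in c-Maf KO and 43 and 8 in control. Of the mixed cells, 16 of 369 in c-Maf KO and 3 of 303 in control were among those marked as likely doublets, and without marked doublets the mixed share was 42.7% in c-Maf KO and 49.5% in control. T cells, which make no light chain, had at least 5 light chain UMIs in 32 of 827 cells of c-Maf KO and 41 of 1139 of control, and in 1 and 6 cells without marked doublets.

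**Figure D3:**
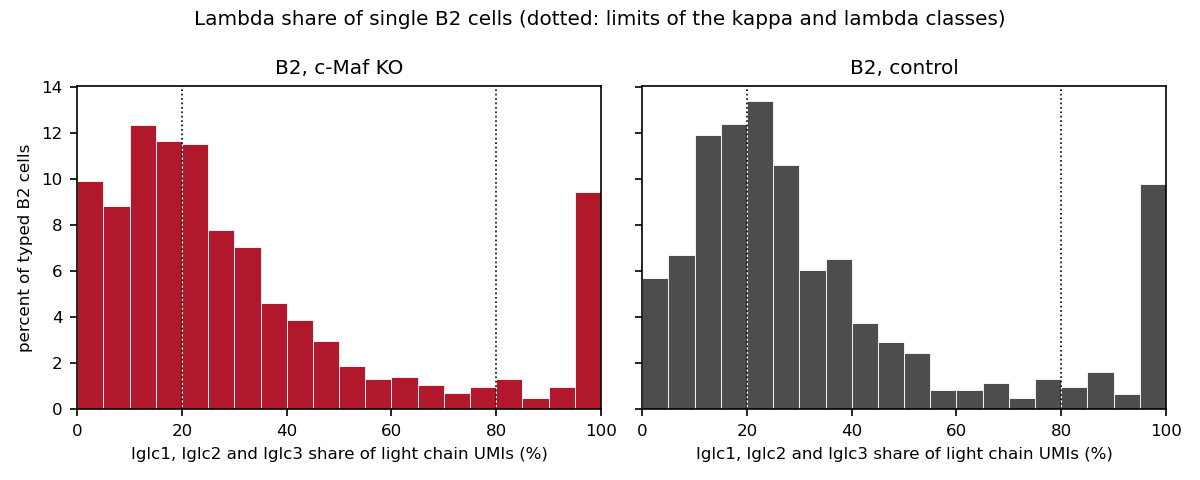
Share of Iglc1, Iglc2 and Iglc3 among light chain UMIs of single B2 cells with at least 5 such UMIs (horizontal axes, percent, in 5% bins) against the percent of those cells (vertical axis), for c-Maf KO at left and control at right, with dotted lines at the class limits of 20% and 80%. Both libraries have a broad peak below 40% and a separate one of 80 c-Maf KO and 60 control cells at 95% or more.

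Lambda and kappa cells of B2 differed in a few other genes in the same direction in both libraries. Myl4 measured 39.8 in lambda cells and 154 in kappa cells of c-Maf KO, and 24.0 and 61.2 in control, though the lambda sums held only 12 and 6 UMIs. Sox4 measured 69.6 in lambda and 155 in kappa cells of c-Maf KO and 88.0 and 152 of control. Ighd ran the other way, at 282 in lambda and 201 in kappa cells of c-Maf KO and 396 and 285 of control. H2-Aa, a later gene, was lower in lambda cells, at 676 against 1189 in c-Maf KO and 976 against 1408 in control. These genes were singled out after their values were seen, and the ratios were not tested.

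B2 made up a similar part of the B lineage in both libraries while its neighbours did not. It was 850 of 2682 B lineage cells in c-Maf KO, 31.7% (29.9 to 33.5%, exact binomial), and 618 of 1799 in control, 34.4% (32.2 to 36.6%), and the intervals overlapped. B1 was 41.5% in c-Maf KO and 16.4% in control, and CLP 8.91% and 3.06%. B3 was 17.9% in c-Maf KO and 46.2% in control. Of all annotated cells, B2 was 10.4% in c-Maf KO and 8.06% in control.

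The split by sex type gave opposite differences for B2. Each type stands for 1 mouse per library if the pooling was as labelled. B2 was 35.4% of female-type B lineage cells in c-Maf KO and 28.3% in control, a difference of 7.16 percentage points. Among male-type cells it was 23.2% in c-Maf KO and 32.6% in control, a difference of -9.38 points. The male-type control cells held almost no early stages, with 4 CLP and 29 B1 cells against 155 B2 cells. Between animals the difference was not tested, and a shift with genotype cannot be told apart from a difference between the pooled mice.

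**Figure D4:**
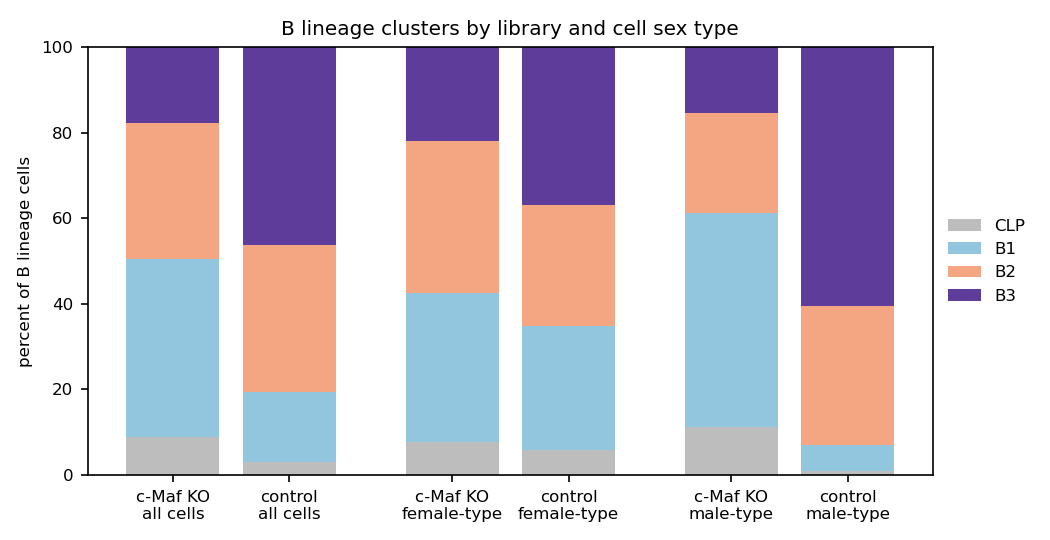
Percent of B lineage cells in CLP, B1, B2 and B3 (stacked bars, 0 to 100%) for all cells, female-type cells and male-type cells, with c-Maf KO left of control in each pair. B2 takes 31.7% in c-Maf KO and 34.4% in control over all cells, 35.4% and 28.3% of female-type cells, and 23.2% and 32.6% of male-type cells.

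Between the genotypes most genes of B2 cells differed little. A call of higher or lower needed a difference of at least 1.5-fold between the summed levels, an exact 95% interval without equality, and 50 UMIs over the libraries. Of 7268 genes, 142 were called higher in c-Maf KO, 1.95%, and 123 lower, 1.69%. None of the 5 cluster markers was called, with log2 ratios from -0.10 for Iglc1 to 0.14 for Ms4a1, and none of the measured heavy or light chain constant genes. Of the called genes, 120 of the 142 higher and 106 of the 123 lower had the same sign in female-type and male-type cells, which are part of the same sums. Only 5 of the higher and 1 of the lower genes were called in each type by itself. They were Jchain, Xbp1, Myl4, Ly6a and Ly6c2, and Selenop. After thinning, 40 of the 142 and 41 of the 123 kept their calls, and 65 and 57 had under 50 UMIs left. With a minimum of 200 UMIs, 17 of 3373 genes were called higher and 14 lower. The interval was set for each gene and not corrected for the number of genes. The share of calls that counting error alone would give is not reported here.

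A single pair of cells set the largest difference. Jchain, the joining chain of secreted IgM and a plasma cell gene, held 729 UMIs in c-Maf KO B2 and 2 in control B2, and 723 of the 729 came from 2 cells. Those cells held 15049 and 16662 UMIs, with 1611 and 1196 of Ighm and 1577 and 2619 of Igkc. Both were marked as likely doublets and both had an RNA of Mki67 or Top2a. They also held 122 of the 157 c-Maf KO UMIs of Ly6c2, a surface protein of several blood cells, against 31 in control. Without the 3 cells richest in each gene, neither Jchain nor Ly6c2 was called, at log2 ratios of 1.97 and 0.14. Xbp1, a factor of antibody secretion, did not rest on these cells alone. It held 194 UMIs in 130 c-Maf KO cells and 74 in 68 control cells, with a log2 ratio of 1.04 (0.65 to 1.45) and 0.81 without its 3 richest cells.

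Of the 11 progenitor genes that could be called, 3 were called higher in c-Maf KO B2 and none lower. Myl4 held 271 UMIs in 161 c-Maf KO cells and 85 in 63 control cells, 98.4 and 39.3 CPM. Its log2 ratio was 1.32 (0.97 to 1.69), female-type cells alone gave 1.23 and male-type cells 1.56. Il7r held 72 UMIs in 32 c-Maf KO cells and 8 in 6 control cells, a log2 ratio of 2.74 (1.76 to 4.09), and 2.02 and 2.19 in the types, where too few UMIs were left for a call. Cd93 measured 52.3 and 34.2 CPM, a log2 ratio of 0.61 (0.20 to 1.04). These 3 were the called members of the list of 20 progenitor genes. Without marked doublets only Myl4 was called, since Il7r, at 2.31, had under 50 UMIs left and Cd93, at 0.48, was below 1.5-fold. Thinning also left only 1 of the 3 called, with Il7r under 50 UMIs and Cd93 at 0.48. Of the 72 c-Maf KO UMIs of Il7r, 13 and 8 came from 2 marked doublets. The median log2 ratio of the 13 list members with 20 UMIs was 0.33, with 12 above 0, beside a median of 0.01 over all genes. In B3 the same list had a median of 0.22, with 10 of 12 members above 0, and in B1 0.06, with 9 of 15. T cells with a Vpreb3 UMI were 4.11% in c-Maf KO and 2.06% in control after thinning. The part of RNA from other cells in these B2 values was not tested. Vpreb3 at 0.43 and Chchd10 at 0.43 were below 1.5-fold, and so was Sox4 at 0.19. Of the 494 B1-high genes that could be called, 24 were higher and 6 lower. The B1-high genes had a median of 0.10, which was 0.11 over female-type and 0.01 over male-type cells. Of 345 B3-high genes, 15 were lower and 8 higher, and their median was -0.05. Over all 7268 genes that could be called, 1.95% were called higher and 1.69% lower.

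Among mature genes Ly6a and Cr2 were called higher and Gpr183 lower, of 24, and 16 had a log2 ratio below 0. Their median was -0.14, which was 0.11 over female-type cells, with 15 of 24 above 0, and -0.22 over male-type cells, with 15 of 21 below 0. Gpr183, the receptor that guides B cells within follicles, held 48 UMIs in c-Maf KO and 65 in control, a log2 ratio of -0.78 (-1.36 to -0.23). Cr2, the complement receptor CD21, held 59 UMIs in c-Maf KO and 27 in control, a log2 ratio of 0.76 (0.10 to 1.49). After thinning Cr2 lost its call, at 0.55. Ighd and Ccr7, a homing receptor, had ratios of -0.46 and -0.53 and were not called. Female-type cells gave 0.06 for Ighd and male-type cells -0.95, and for Ccr7 the types gave -0.81 and -0.52. The kinase genes Pim1 and Pim2, which support survival, were both called lower. Pim1 held 529 UMIs in c-Maf KO and 632 in control, a log2 ratio of -0.61 (-0.78 to -0.44). Pim2 held 64 and 77, at -0.61, and lost its call without its 3 richest cells, at -0.51, and after thinning, at -0.35. They were the called members of 15 callable survival genes. Without the tenth of cells richest in RNA of other cell types neither was called, at -0.58 and -0.57, nor without cells with Mki67 or Top2a, at -0.54 and -0.46. Myc, a growth regulator, held 67 UMIs in c-Maf KO and 108 in control, a log2 ratio of -1.03 (-1.50 to -0.59), where female-type cells gave -1.44 and male-type cells -0.05.

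No ribosome biogenesis gene was called. Of 17 members with 20 UMIs, 16 had a log2 ratio below 0 with a median of -0.28. Female-type cells gave a median of -0.39 and male-type cells one of -0.10. In B3 the median was -0.13, with 14 of 17 below 0, and in B1 it was 0.004. Heat shock genes had a median of -0.32, with Hspa1a and Hspa1b, the inducible Hsp70 genes, called lower of 12. Their median was -0.39 over female-type and -0.09 over male-type cells. In B3 it was -0.20, with 3 of 12 called lower, and in B1 -0.07. Hspa1b held 122 UMIs in c-Maf KO and 214 in control, a log2 ratio of -1.16. Female-type cells gave 1.48 and male-type cells -2.30, opposite directions. MHC class II genes had no call and a median of -0.14, which was 0.14 over female-type and -0.60 over male-type cells. Interferon-stimulated genes had a median of 0.01, which was 0.63 over female-type and -0.51 over male-type cells, with Slfn5 and Slfn2 called higher and Isg15 called lower of 21. Female-type cells gave -0.40 for Slfn2 and male-type cells 2.48, and Isg15 lost its call without its 3 richest cells, at -0.41.

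The remaining genes named by size among those called with 100 UMIs were Gas7, Sh3glb2, Vangl2, H2-Q7, Ap1g1 and Slc15a3, higher with log2 ratios from 0.89 for Slc15a3 to 1.09 for Gas7. Lower were S100a6, Rab33b, Serpina3g, Ppih, Cept1 and Cd274, with log2 ratios from -1.07 for S100a6 to -0.82 for Cd274. Cd274 encodes the checkpoint ligand PD-L1. None of the 12 was called in both sex types. After thinning, Sh3glb2, Slc15a3 and Cd274 lost their calls, at 0.72, 0.38 and -0.39. Among other lists, Ung, a member of the S phase list, was called lower at -1.06. Ccr6, a chemokine receptor, the glycolytic gene Hk1 and the division gene Mki67 were called higher at 1.15, 0.87 and 1.64. Mki67 rested on 45 UMIs in 24 c-Maf KO cells and 11 UMIs in 8 control cells, and lost its call without its 3 richest cells. Hk1 lost its call without the tenth of cells richest in other cell types and without cells with Mki67 or Top2a, at 0.66 and 0.67. Thinning gave it 0.39, with too few UMIs for a call. Ung gave -1.35 over female-type cells and 0.72 over male-type ones.

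**Figure D5:**
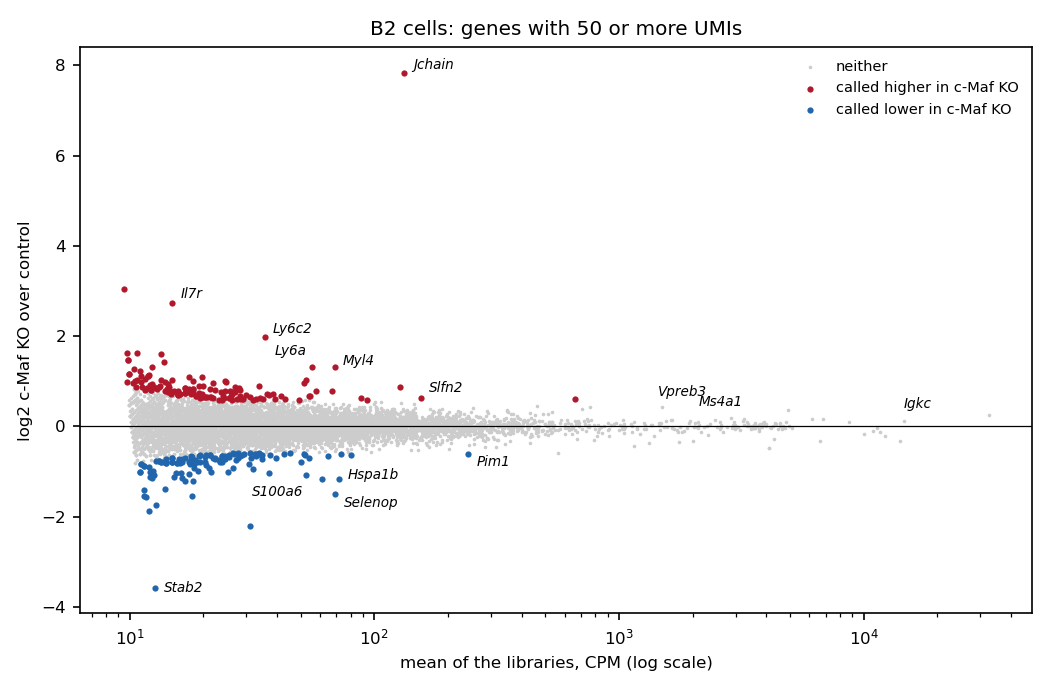
Ratio of the libraries on the log2 scale, c-Maf KO over control, in B2 cells (vertical axis) against the mean level of the libraries (horizontal axis, CPM, log scale) for 7268 genes with 50 or more UMIs, with called genes in red and blue. The abundant B cell genes Ms4a1 and Igkc lie near 0, at 0.14 and 0.12, and the called genes are mostly of low level, with Jchain alone at 7.84.

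RNA typical of other liver cells differed between the libraries in B2. Of 10 callable endothelial genes, 5 were called lower and none higher in c-Maf KO, with a median log2 ratio of -0.68. The neighbouring clusters had similar medians. B1 gave -0.58, with 1 of 8 callable genes called lower, and B3 gave -0.65, with 5 of 13. The summed endothelial list measured 354 CPM in c-Maf KO B2 and 418 in control B2. Stab2, a scavenger receptor of sinusoidal endothelium, held 5 UMIs in c-Maf KO B2 and 51 in control B2, and measured 259 and 1617 CPM in the endothelial clusters themselves. Without each gene's 3 richest cells, 3 of 8 callable endothelial genes were called lower, and Stab2 was left with too few UMIs for a call. Dnase1l3, a secreted nuclease, held 30 and 55 UMIs in B2. The Kupffer cell list summed to 141 in c-Maf KO and 227 in control, the hepatocyte list to 49.4 and 85.6, the erythroid list to 260 and 315, the T and NK list to 28.0 and 45.4 and the neutrophil list to 177 and 141. The T cell gene Cd3e, a defining marker, measured 0 in c-Maf KO B2 and 1.39 in control B2. The plasmacytoid and dendritic list summed to 934 and 904, and its called members were Ly6c2 and Cox6a2. Of the 111 control UMIs of the globin gene Hbb-bs, 79 came from 2 cells.

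Selenop and Ly6a, which were called in both sex types, are genes whose level also differed in the endothelium. Selenop, a secreted selenium carrier, held 99 UMIs in 78 c-Maf KO B2 cells and 222 in 161 control B2 cells. Its log2 ratio was -1.51 (-1.87 to -1.17), where female-type cells gave -1.64 and male-type cells -1.16. It was also called lower in B1, B3 and the T cell clusters, at -0.64, -0.94 and -1.95, and measured 1203 in c-Maf KO and 6722 in control endothelium. Ly6a, the stem cell antigen Sca-1, held 219 UMIs in 95 c-Maf KO B2 cells and 69 in 44 control B2 cells, a log2 ratio of 1.31 (0.92 to 1.73). It was also called higher in B1 and the T cell clusters, at 3.12 and 1.38, and measured 1876 in c-Maf KO and 50.3 in control endothelium. The part of endothelial RNA in these B2 values was not tested. Myl4 and Xbp1 measured 15.6 and 78.5 in c-Maf KO endothelium and 7.64 and 138 in control endothelium, and neither was called in B1 or B3, while Myl4 was called higher in the T cell clusters at 0.95. Of the 142 genes called higher in B2, 10 had the same call in B1, 8 in B3 and 10 in the T cell clusters. Of the 123 called lower, 10 had it in B1, 17 in B3 and 20 in the T cell clusters. Over all genes with 50 UMIs, 2.05% were called higher and 1.66% lower in B1, 1.8% and 1.26% in B3, and 2.45% and 3.13% in the T cell clusters.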

How the data were processed

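The authors deposited 1 table of raw UMI counts per library, with 32285 genes and 9058 barcodes in c-Maf KO and 9038 in control. The submitters' processing notes name mm10, Cell Ranger 4.0.0, FastQC 0.11.3 and Seurat 3.2.3, with no settings given in the sources used here. The annotation deposited by the authors names 23 clusters and gives per cell the percent of mitochondrial counts, a sex call and cell cycle scores, which served only through their phase names. Its 8166 c-Maf KO and 7669 control barcodes were matched to the tables. No further filter was applied to cells.

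Counts were summed per cluster and library and scaled to CPM by the total UMIs. Log2 ratios used 0.5 added UMIs. Intervals (95%) are exact Poisson for levels, exact binomial (Clopper-Pearson) for shares and conditional binomial for ratios. A list's median uses members with at least 20 UMIs. Thinned shares used 2075 UMIs per cell and left out shallower cells, 101 of c-Maf KO and 46 of control B2. Scrublet in scanpy 1.11.5 marked only 1 control cell by its automatic threshold, so the top 5% of scores per library were marked and kept in the main values. Female-type cells had Xist and no Y-linked UMI, male-type cells the reverse. The deposited sex call named female the 463 c-Maf KO and 219 control B2 cells with a Xist UMI and all others male, so cells without either RNA were left out of the types. Python 3.11.15, numpy 2.4.6, scipy 1.17.1 and pandas 2.3.3 were used, and the ratio step was checked on simulated data.

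Members and the 29 gene lists were chosen with earlier results of these data known. Named genes were the markers, constant region genes and recombination genes, the 10 highest and 10 lowest ratios for B2 against B1 and B3 (50 UMIs in each library) and for c-Maf KO over control (called, 100 UMIs), up to 3 called members per list and direction, and Maf, some of which are not reported here. Genes whose stage order is quoted as an example, the lambda and kappa comparison and the non-called examples were chosen after their values were seen.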

Additional observations from a re-analysis of the deposited data

Results flagged for a closer look

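In 7 results the female-type and male-type cells went opposite ways, each with an interval that excluded equality, or for the share with opposite signs. The difference between the types was not tested, and each type stands for 1 mouse per library. H2-Aa had a log2 ratio, c-Maf KO over control, of 0.20 over female-type B2 cells and -0.86 over male-type B2 cells. The female-type and male-type values were 0.26 and -0.59 for H2-Ab1, 0.0927 and -0.43 for Cd74, and 0.10 and -0.14 for the receptor chain Cd79b. They were -0.40 and 2.48 for Slfn2, an interferon-stimulated gene, and 1.48 and -2.30 for Hspa1b. The share of B2 in the B lineage differed by 7.16 percentage points in female-type cells and by -9.38 points in male-type cells, c-Maf KO minus control.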

How the results depend on the processing

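With 1 library per group no replicate could be left out, and depth limits which genes can be called. No paired analysis was possible because each group has 1 sample. The 142 higher and 123 lower genes became 17 and 14 with a minimum of 200 UMIs, 251 and 222 with no minimum, and 30 and 30 at 2-fold. In female-type cells 221 genes were called higher, 36 of them shared with the 142, and in male-type cells 85, of which 9 were shared; the lower counts there were 183 and 124, with 29 and 6 shared. Under the other settings (totals without immunoglobulin genes, centring, 20 UMIs, thinned cells, without marked doublets, without cells rich in other cell types or with Mki67 or Top2a, and, added after seeing the data, without each gene's 3 richest cells) the counts were 103 to 202 higher and 93 to 179 lower. The B2 share moved to 35.4% and 23.2% in c-Maf KO and 28.3% in control female-type cells, and at a majority of 95% the lambda share moved to 9.42% in c-Maf KO and 9.79% in control, the kappa share, 44.4% and 37.5% at 80%, to 9.89% and 5.71% and the mixed share to 80.7% and 84.5%; the kappa and mixed alternatives were chosen after seeing the data. Of 45 named genes with a call, 28 kept it in all of 4 unthinned settings. These were without marked doublets, without cells rich in other cell types, without Mki67 or Top2a cells and without each gene's 3 richest cells. After thinning, 11 of the 20 named higher and 13 of the 25 named lower genes lost their call, most with under 50 UMIs left. Cd93, Cr2, Sh3glb2, Slc15a3, Cd274, Maf and Pim2 lost it with 50 or more UMIs left. Reversed in male-type cells were C1qb at 0.24, Cox6a2 at -1.04 and Ung at 0.72, and in female-type cells Hspa1b at 1.48, Isg15 at 0.33 and Slfn2 at -0.40. Ly6c2 reversed to -0.25 without marked doublets, -0.32 without cells rich in other cell types and -0.23 without Mki67 or Top2a cells, where Jchain reached -0.27. The 2 richest cells of Jchain and Ly6c2 are among those left out for doublets and for Mki67 or Top2a, and for other reversals the cause was not tested.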
